A study of Mus musculus with 7 samples.

Results

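Open chromatin was described at 9 mouse genes that anchor epithelial cells: 5 of the hemidesmosome and its ligand (Itga6, Itgb4, Lama3, Lamb3, Col17a1) and 4 of the desmosome (Dsp, Dsg3, Dsc3, Pkp1). The data were ATAC-seq peaks, stretches where a transposase cuts accessible DNA, from embryonic gut. Peaks of 7 libraries were merged where they overlapped by at least 1 bp, and each merged region went to the protein-coding gene whose body lay closest, up to 100 kb away. The 9 genes received 194 of the 326695 regions, 131 at the hemidesmosome genes and 63 at the desmosome genes. A region counts as held by a library that has a peak in it.

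Hemidesmosomes tie the base of an epithelial cell to the basement membrane, and desmosomes tie neighbouring cells to each other. Both end inside the cell on keratin filaments. The integrin α6β4 (Itga6, Itgb4) binds laminin-332, whose α3 and β3 chains come from Lama3 and Lamb3, and collagen XVII (Col17a1) spans the membrane beside it. In the desmosome the cadherins desmoglein and desmocollin meet between cells, plakophilins and plakoglobin form the plaque, and desmoplakin (Dsp) joins the plaque to keratin. Dsg3, Dsc3 and Pkp1 are known from stratified epithelia such as skin and oesophagus, and Dsp from all desmosomes. In the mouse stomach the forestomach becomes a stratified squamous epithelium, whereas hindstomach, intestine and colon are lined by simple, glandular or absorptive epithelium.

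The 7 groups had 1 library each. The labels give embryonic day 13 (E13) stomach and intestine, E16 forestomach, hindstomach, intestine and colon, and a stomach sample of E16 in which Sox2 was knocked out (KO). The protocol text, which writes E13.5 and E16.5, names ShhCre; R26YFP/+ embryos for both ages, so cells were marked by a Cre driven from Shh, which gut epithelium expresses. E13 organs were pooled from several embryos, dissociated with trypsin and sorted; E16 forestomach was freed with dispase, by hand and with collagenase, and the other wild-type E16 epithelia with EDTA. For the KO library the sources used here do not give the stomach part, the allele, the Cre or the isolation. All samples are labelled as untreated. No group had a replicate. No difference between groups was therefore tested, and tissue, stage and genotype cannot be told apart from isolation or library. SOX2 is a foregut transcription factor, and the comparisons set stomach beside intestine, stage beside stage and KO beside wild type.

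Promoter sequence was at hand for 3 of the 9 genes in RefSeq's GRCm38.p6 table, and 250 bases upstream of a transcript start are printed because they show 3 different patterns: open in every library at Lamb3, in every library but forestomach at Dsp, and in none at Col17a1. Capitals mark matches, on either strand, to CCCCNCCC, known as a motif of KLF factors, and to AGATAA, known as the motif of GATA factors.
Lamb3, chr1:193301744-193301993, plus strand: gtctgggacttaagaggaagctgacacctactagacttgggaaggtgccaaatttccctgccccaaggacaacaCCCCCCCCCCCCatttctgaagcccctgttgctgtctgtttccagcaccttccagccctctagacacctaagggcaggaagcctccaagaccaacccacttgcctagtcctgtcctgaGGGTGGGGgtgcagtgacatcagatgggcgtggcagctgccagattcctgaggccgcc
Dsp, chr13:38151044-38151293, plus strand: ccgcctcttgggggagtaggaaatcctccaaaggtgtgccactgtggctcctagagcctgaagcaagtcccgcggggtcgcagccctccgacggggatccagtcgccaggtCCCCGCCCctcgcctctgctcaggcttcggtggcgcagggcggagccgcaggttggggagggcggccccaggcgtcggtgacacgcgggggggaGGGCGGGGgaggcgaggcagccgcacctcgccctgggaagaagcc
Col17a1, chr19:47692043-47692292, minus strand: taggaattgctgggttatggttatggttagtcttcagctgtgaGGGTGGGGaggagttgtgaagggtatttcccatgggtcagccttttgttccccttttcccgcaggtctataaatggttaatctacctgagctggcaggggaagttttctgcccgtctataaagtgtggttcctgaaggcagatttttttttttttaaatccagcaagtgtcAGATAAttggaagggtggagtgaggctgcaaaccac

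GC content was 72.4% in the Dsp window, 58.8% in the Lamb3 window and 46.0% in the Col17a1 window, against a median of 52.4% over 32619 such windows. The KLF letters matched 2 times at Dsp, 1 time at Col17a1 and 6 times at Lamb3, where 5 matches overlap in 1 run of C, and 31.0% of all windows hold at least 1. The GATA letters matched 1 time, 36 bases before the Col17a1 start, and are in 10.0% of all windows. Neither Lamb3, Dsp nor Col17a1 matched TGANTCA (AP-1, 6.78% of windows), AACCNGGTT (GRHL, 0.242%), ACAATG (SOX, 10.4%) or TTTATG (CDX, 10.8%) in the windows searched. GGAATG (TEAD, 12.6%) matched 1 time, in the window of a second Lamb3 start at chr1:193301993-193302242. CATG, part of the p63 site, is in 53.9% of windows, with 1 match at Col17a1 and 1 in the second Lamb3 window. A match describes letters only.

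Peaks numbered from 81179 in E13 intestine to 135743 in colon, and their median widths lay between 108 bp (E13 intestine) and 178 bp (forestomach). The smallest peak was 62 bp wide in E13 intestine, 71 in KO stomach, 77 in E13 stomach and 86 in colon. It was 87 bp in E16 intestine, 89 in hindstomach and 108 in forestomach. A covered length at such a value lies at the floor of its list, and the floor differs between libraries. Depth, peak height and score are unknown. All 9 epithelial marker genes, Epcam and Cdh1 among them, had regions in every library. So had all 8 mesenchyme and all 6 endothelial genes listed, so such presence does not set epithelium apart. Of 60 regions at 7 squamous and basal epithelium genes (Trp63, Krt5, Krt14, Krt15, Pax9, Krt13, Krt4), forestomach held 15, fewer than E13 stomach with 27, KO stomach with 23, E13 intestine with 19 and hindstomach with 18, as many as colon and more than E16 intestine with 8. Krt15 and Krt4, keratins of stratified epithelium, had no region in the 4 wild-type E16 libraries, so these markers do not set forestomach apart as squamous. Regions at 8 mesenchyme genes were held too, from 35 of 166 in E13 intestine to 56 in KO stomach, as were those at blood and immune genes (18 in E13 intestine to 61 in colon, of 137), endothelial genes (31 in E13 intestine to 69 in colon, of 165) and neural genes (22 in forestomach to 45 in colon, of 114). Their part in the values below was not tested, and Sox10, of the neural list, had no region in the 4 wild-type E16 libraries. At Sox2 itself peaks fell in 9 of 39 regions in E13 stomach, 8 in forestomach, 12 in hindstomach, 13 in KO stomach, 3 in E13 intestine, 8 in E16 intestine and 18 in colon, and these peaks do not show which sequence was deleted.

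Of the 194 regions, E13 stomach held 59, E13 intestine 41, forestomach 66, hindstomach 78, E16 intestine 61, colon 80 and KO stomach 72. The order followed the lengths of the lists only in part: forestomach, whose list was the shorter of the pair, held more than E16 intestine. The shares were 30.4% in E13 stomach, 34.0% in forestomach, 40.2% in hindstomach, 37.1% in KO stomach, 21.1% in E13 intestine, 31.4% in E16 intestine and 41.2% in colon. Over all regions given to any gene they were, in the same order, 29.4%, 27.5%, 35.2%, 35.4%, 23.7%, 29.5% and 39.8%. The 95% Wilson interval of the members, which covers counting error only, held the value of all regions in 6 of 7 libraries; in forestomach the interval was 27.7 to 40.9%, just above 27.5%. The desmosome genes had 27 of 63 regions in forestomach (42.9%) and 26 in hindstomach (41.3%), then 17 in E13 stomach, 22 in KO stomach, 12 in E13 intestine, 20 in E16 intestine and 25 in colon. The hemidesmosome genes had 55 of 131 regions in colon, 52 in hindstomach, 50 in KO stomach, 42 in E13 stomach, 41 in E16 intestine, 39 in forestomach and 29 in E13 intestine.

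**Figure D1:**
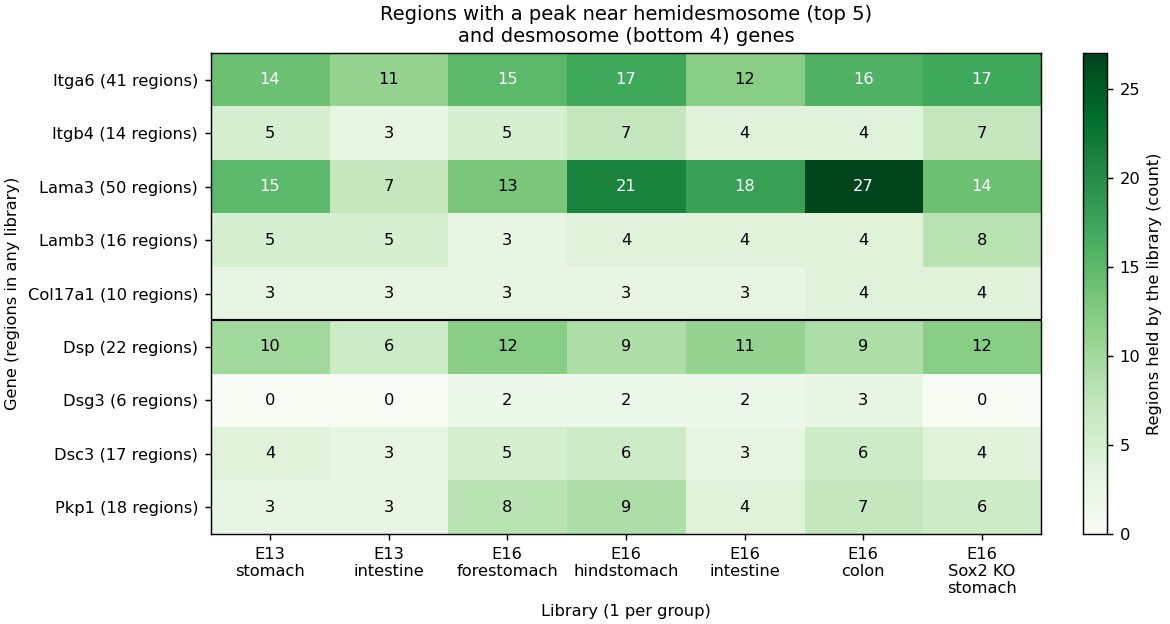
Number of merged regions held by each of the 7 libraries (x axis, 1 library per group) at each of the 9 genes (y axis), with no error bar because there are no replicates. Lama3 reaches 27 regions in colon, and Dsg3 has 0 in both E13 libraries and in KO stomach.

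In 13 of the 194 regions (6.7%) all 7 libraries had a peak, against 5.26% of all assigned regions. They lay at Itga6, Lama3 and Dsp (3 each) and at Lamb3 and Pkp1 (2 each). At the other extreme 98 regions (50.5%, against 53.4%) were held by 1 library only, and 31 of these lay within 2 bp of the smallest peak width in their library. Counts of unshared regions below thus rest in part on the narrowest peaks called. Gene bodies held 124 regions (63.9%, against 58.4%), and 12 (6.19%, against 10.3%) lay within 1 kb of an end of a protein-coding gene.

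At the integrin genes the α6 chain had more regions than its β4 partner, an order that rests on distant regions: 41 against 14 up to 100 kb, 18 against 14 up to 20 kb, and 17 against 19 when all gene bodies were extended by 10 kb. Itga6 (gene ID 16403, GRCm38 chr2:71786886-71858427) had 41 regions, 26 of them outside the gene body and up to 95.7 kb away. Of the 41 regions E13 stomach held 14, E13 intestine 11, forestomach 15, hindstomach 17, E16 intestine 12, colon 16 and KO stomach 17. The libraries differed little in number, and each held a region at the low-coordinate end of the gene (71786606 to 71787753). There the length under peaks was 979 bp in E13 stomach, 595 in forestomach, 587 in hindstomach, 873 in KO stomach, 579 in E13 intestine, 454 in E16 intestine and 231 in colon. Colon was also the narrowest at the 8144 gene-end regions held by all libraries, with a median of 287 bp, where KO stomach was the widest with 554 bp.

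Away from its end, Itga6 had a region 8.96 kb below the gene (71777099 to 71777927) held by every library except KO. Peaks covered 255 bp of it in E13 stomach, 788 in forestomach, 753 in hindstomach, 205 in E13 intestine, 814 in E16 intestine and 821 in colon. The 4 wild-type E16 libraries covered most of this region, and the E13 libraries a smaller part. Over all genes 11.1% of regions away from gene ends that the other 6 libraries hold have no peak in KO (718 of 6485), and at the 9 genes 2 of 12, the other in Lama3. A further Itga6 region, 46.9 kb below the gene (71739361 to 71740020), was a stomach region: it had 365 bp under peaks in E13 stomach, 584 in forestomach, 612 in hindstomach and 358 in KO, and no peak in E13 intestine, E16 intestine or colon.

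Itgb4 (192897, chr11:115974725-116008412), whose long cytoplasmic tail binds plectin, had 14 regions, and the libraries held 5 in E13 stomach, 5 in forestomach, 7 in hindstomach, 7 in KO stomach, 3 in E13 intestine, 4 in E16 intestine and 4 in colon. The region at its low-coordinate end (115974821 to 115975178) was open in 6 libraries, with 319 bp under peaks in E13 stomach, 193 in forestomach, 277 in hindstomach, 331 in KO, 200 in E13 intestine and 145 in E16 intestine and no peak in colon. Of all gene-end regions that the 6 other libraries hold, 11.1% lack a colon peak. Below that end, 2 regions at 3.38 and 4.12 kb were held by forestomach, hindstomach and KO, the farther one also by E13 stomach, and by none of the intestinal libraries or colon. Inside the gene the region at 115976478 to 115976686 was held by forestomach (208 bp) and hindstomach (195 bp) alone. The KO library held the first pair and had no peak in the last region.

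Lama3 (16774, chr18:12333417-12583013), the α3 chain of laminin-332, is the longest of the 9 genes at 250 kb and had 50 regions, 27 of them in 1 library only. E13 stomach held 15, E13 intestine 7, forestomach 13, hindstomach 21, E16 intestine 18, colon 27 and KO stomach 14. Colon, the longest list, was highest and E13 intestine, the shortest, lowest. At equal list length colon still held the most with the widest peaks, 18. With random thinning, done in a single draw, it held 15, below hindstomach and E16 intestine with 16 each. E13 intestine, whose list is not shortened, stayed lowest with 7. At its low-coordinate end (12333693 to 12334225) peaks covered 296 bp in E13 stomach, 399 in forestomach, 403 in hindstomach, 393 in KO, 303 in E13 intestine and 335 in colon, and E16 intestine had none. Among gene-end regions held by the other 6 libraries, 5.05% lack an E16 intestine peak. Within the gene 3 regions were held by all 7 libraries. In 1 of them (12452300 to 12453020) the covered length was 381 bp in E13 stomach, 366 in forestomach, 271 in hindstomach, 90 in KO, 185 in E13 intestine, 434 in E16 intestine and 675 in colon, so that colon was widest and KO narrowest. The others had different orders. At 12440522 to 12440732 KO was widest with 200 bp and E16 intestine narrowest with 87, the smallest peak width of its list. At 12503706 to 12504275 forestomach was widest with 567 bp and E13 stomach narrowest with 260, with 380 in KO and 372 in colon.

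Lamb3 (16780, chr1:193294353-193343878), the β3 chain, had 16 regions, 5 each held by the E13 libraries, 3 by forestomach, 4 each by hindstomach, E16 intestine and colon, and 8 by KO stomach. The wild-type libraries lay within 2 regions of each other, and KO held the most. At equal list length KO still held the most with the widest peaks, 7 against 5 in E13 intestine. In the single draw of random thinning KO held 4 and E13 intestine, with 5, the most. No library had a region within 1 kb of either end of the gene body. The 2 transcript starts with a promoter window lie inside the body. Across both of these starts (193301849 to 193302398) peaks covered 477 bp in E13 stomach, 524 in forestomach, 444 in hindstomach, 508 in KO, 265 in E13 intestine, 111 in E16 intestine and 113 in colon. E16 intestine and colon were thus the narrowest here, and the 4 stomach libraries the widest. The medians over the 8144 gene-end regions held by all libraries ran the same way. They were 287 bp in colon, 350 in E16 intestine and 352 in E13 intestine, and from 424 (forestomach) to 554 (KO) in the stomach libraries. In the printed promoter window that order did not hold, as hindstomach lay below colon. There peaks covered 144 of 250 bases in E13 stomach, 119 in forestomach, 96 in hindstomach, 140 in KO stomach, 116 in E13 intestine, 75 in E16 intestine and 102 in colon. In the window of the second start the 4 stomach libraries covered all 250 bases, E13 intestine 117, E16 intestine 37 and colon 12. A second region just below the first (193301277 to 193301543) ran from 86 bp in colon and 93 in E16 intestine to 258 in hindstomach. The 86 bp are the smallest peak width of the colon list.

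Col17a1 (12821, chr19:47646341-47692042), the membrane collagen of the hemidesmosome, had 10 regions, with 3 in each library except colon and KO stomach, which held 4. No library had a peak in its printed promoter window, which holds for 49.4% of all windows. None of its regions was open in all 7 libraries. The most shared one, in the gene body and ending at 47655336, was held by forestomach (269 bp), hindstomach (216 bp), colon (326 bp) and KO (133 bp). A region 9.19 kb above the gene, on the side of its transcript start, was held by E13 stomach (366 bp), hindstomach (115 bp) and KO (272 bp). Forestomach had no peak on that side of the gene.

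**Figure D2:**
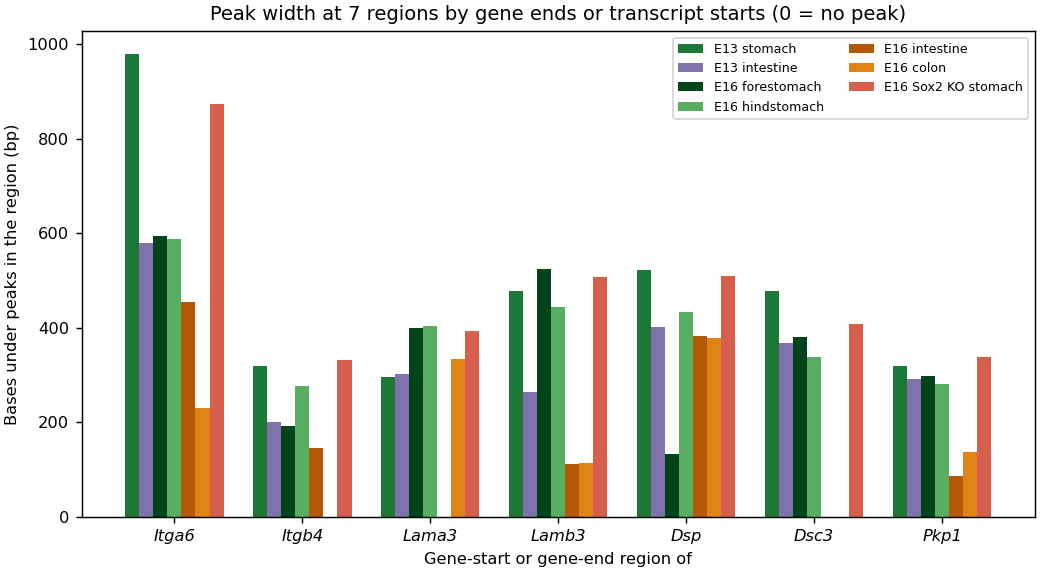
Length under peaks in base pairs (y axis) at 7 regions by gene ends or transcript starts of the members, for each of the 7 libraries, 1 library per group and no error bars. A value of 0 means no peak: Dsc3 is at 0 in E16 intestine and colon, Itgb4 in colon and Lama3 in E16 intestine.

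Among the desmosome genes Dsp (109620, chr13:38151294-38198577), desmoplakin, had 22 regions. E13 stomach held 10, E13 intestine 6, forestomach 12, hindstomach 9, E16 intestine 11, colon 9 and KO stomach 12. Forestomach and KO were highest. At equal list length forestomach kept 12, with the widest peaks and with random thinning. KO held 9 in each case, below E13 stomach with the widest peaks (10) and level with E16 intestine in the single thinned draw. At the transcript start (38151016 to 38151577) the peaks covered 522 bp in E13 stomach, 133 in forestomach, 434 in hindstomach, 510 in KO, 402 in E13 intestine, 383 in E16 intestine and 378 in colon. Forestomach stood apart: its only peak there began past the transcript start, and it covered 0 of the 250 bases printed above, where the other libraries covered from 118 (E13 intestine) to 250 (E13 stomach). Of 7908 promoter windows with a peak in the 6 other libraries, 152 (1.92%) lack one in forestomach. Inside the gene, at 38152527 to 38152984, the order turned: forestomach covered 443 bp and hindstomach 319. The others covered from 87 bp (E16 intestine, the smallest peak width of its list) to 183 bp (colon).

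Pkp1 (18772, chr1:135871394-135919207), plakophilin of the desmosomal plaque, had 18 regions. E13 stomach and E13 intestine held 3 each, forestomach 8, hindstomach 9, E16 intestine 4, colon 7 and KO stomach 6. Both wild-type E16 stomach parts were thus the highest and both E13 libraries the lowest. With the widest peaks at equal list length forestomach held 8 and hindstomach 7, still the highest, colon 6 and KO 4, and with random thinning KO held 3. The region at the high-coordinate end (135919062 to 135919470) was held by all, with 320 bp in E13 stomach, 297 in forestomach, 280 in hindstomach, 339 in KO, 291 in E13 intestine, 87 in E16 intestine and 137 in colon. The 87 bp in E16 intestine are the smallest peak width of its list. Outside the gene, 3 regions were held by forestomach and hindstomach and by no other library. The first (135862013 to 135862604, 8.79 kb below the gene) had 591 bp in forestomach and 492 in hindstomach, the second (135863771 to 135864064) had 116 and 293, and the third (135933744 to 135934148, 14.5 kb above) had 355 and 358. Of 291 genes with 18 regions, 3 (1.03%) have at least 3 such regions, as have 335 of 20444 genes in all (1.64%). A region in the gene body at 135895513 to 135895709 was held by forestomach (108 bp, the smallest peak width of its list), hindstomach (94 bp) and KO (196 bp).

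Of the regions of the stratified cadherin genes, 5 of 6 at Dsg3 (83.3%, 43.6 to 97.0%) were held by 1 library only. At Dsc3 it was 11 of 17 (64.7%, 41.3 to 82.7%). Both intervals held the 53.4% of all assigned regions. Dsg3 (13512, chr18:20510274-20541310), desmoglein 3, had 6 regions: forestomach, hindstomach and E16 intestine held 2 each, colon 3, and both E13 libraries and KO none. Only the region ending at 20526594 was shared, by the 4 wild-type E16 libraries, with 193 bp in E16 intestine, 152 in colon, 114 in forestomach and 98 in hindstomach. Of 1134 genes with 6 regions, 12 (1.06%) likewise had none in the 2 E13 libraries and KO. With gene bodies extended by 10 kb Dsg3 stayed at 0 in these 3 libraries. The other processing alternatives only take peaks or regions away, so a 0 under them was fixed in advance. Dsc3 (13507, chr18:19960930-20002410), desmocollin 3, had 17 regions, 4 each held by E13 stomach and KO stomach, 5 by forestomach, 6 each by hindstomach and colon, and 3 each by the intestine libraries. At its high-coordinate end (20001836 to 20002360) peaks covered 477 bp in E13 stomach, 381 in forestomach, 338 in hindstomach, 408 in KO and 367 in E13 intestine, and E16 intestine and colon had none. Among gene-end regions held by those 5 libraries, 6.38% (654 of 10247) are in neither E16 intestine nor colon. Just outside the other end, 0.546 kb away, a region ending at 19960384 was held by all but the E13 libraries. It ran from 87 bp in E16 intestine, the smallest peak width of that list, to 191 bp in forestomach.

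**Figure D3:**
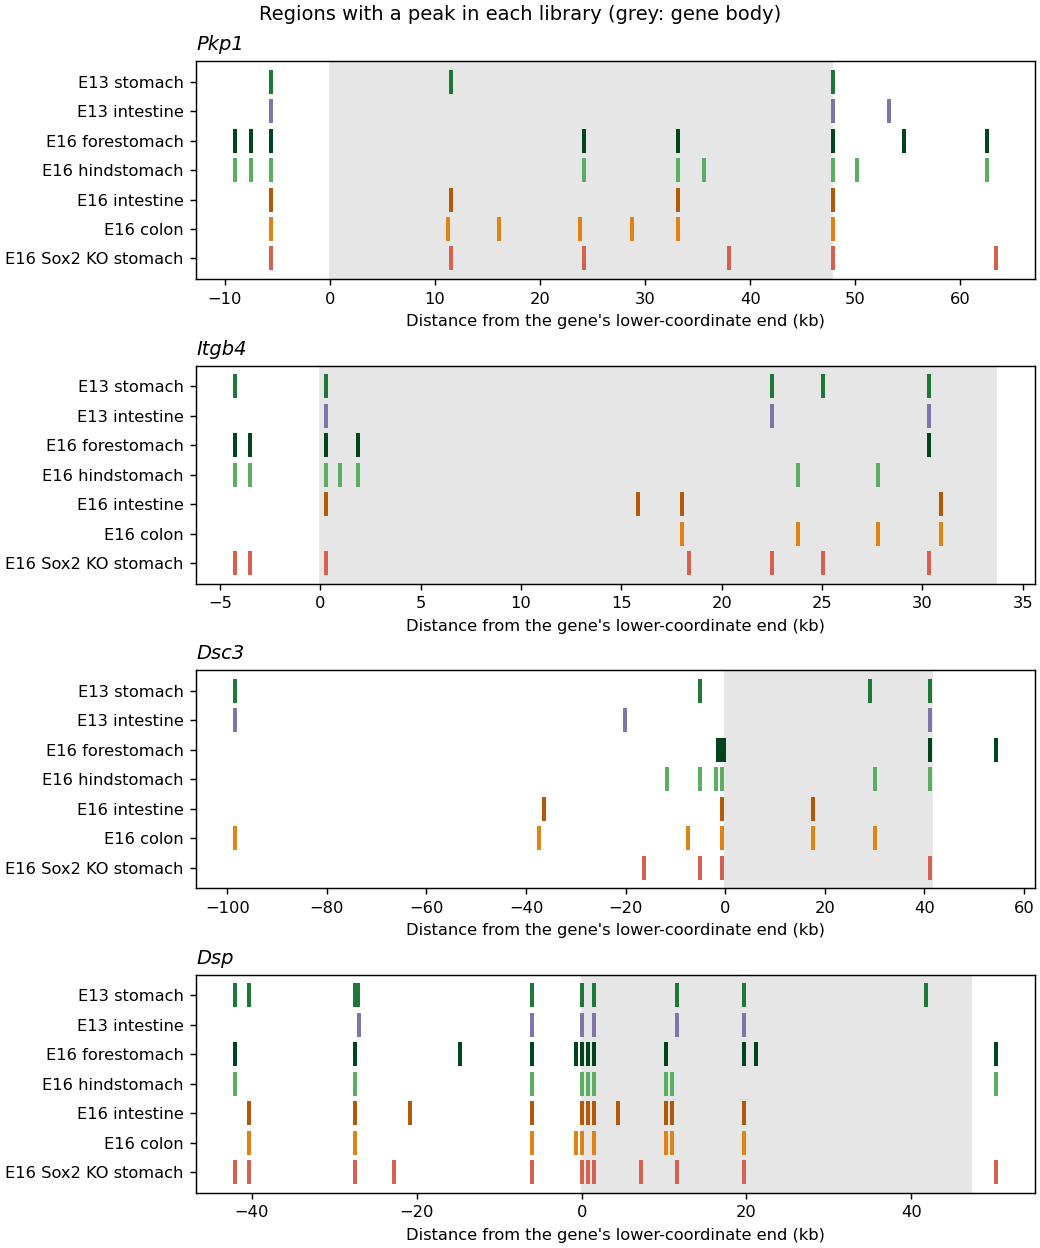
Positions of merged regions at Pkp1, Itgb4, Dsc3 and Dsp as ticks at region centres, with 1 row per library; the x axis is distance in kb from the low-coordinate end of each gene, whose body is drawn as a bar. Pkp1 shows 3 ticks outside the gene in forestomach and hindstomach alone, and Dsc3 lacks the tick at its high-coordinate end in E16 intestine and colon.

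A group of regions was shared by the E16 stomach parts. Both held 48 of the 194 regions (24.7%, against 20.2% of all regions), and 17 of them (8.76% of the 194, interval 5.54 to 13.6%, against 4.86%) had no peak in E13 intestine, E16 intestine or colon. These 17 lay at Itga6 (5), Pkp1 (4), Itgb4 (3), Lama3 (3) and Dsp (2), and none at Lamb3, Col17a1, Dsg3 or Dsc3. In 9 of them (4.64% of the 194, interval 2.46 to 8.58%, against 2.18%) no other library at all had a peak. KO held 8 of the 17 (47.1%, 26.2 to 69.0%, against 51.0% over all genes) and 31 of the 48 (64.6%, 50.4 to 76.6%, against 62.6%). The shares held by KO were thus near those of all genes. In the other direction KO held 31 regions that neither stomach part had (16%, against 16.7%), of which 10 were in E13 stomach (32.3%, against 32.5%) and 3 in E16 intestine or colon (9.68%, against 8.45%).

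For each pair of libraries the regions held by 1 of them only were set against each other. A gene is called for a library with at least 2-fold more regions of its own, after 0.5 is added to both numbers, so 1 region against 0 is enough; the percentages of all genes called are given as background. At E13 the members had 29 stomach-only, 11 intestine-only and 30 shared regions, or 72.5% stomach-only among the unshared (57.2 to 83.9%), where all genes gave 61.2%. With equal list lengths the members gave 64.9% with the widest peaks and 59.1% with random thinning. Called for stomach were 3 members (Dsp with 5 and 1, Itgb4 with 2 and 0, Lama3 with 9 and 1) against 42.6% of all genes, and for intestine 0 against 18.1%. The median log2 ratio was 0.82 over the members and 0.74 over all genes. The members leaned to stomach, and so did genes at large.

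Forestomach and hindstomach, future squamous and glandular epithelium, shared 48 member regions, with 18 in forestomach only and 30 in hindstomach only, or 37.5% forestomach-only (25.2 to 51.6%, all genes 32.8%). Dsp, with 4 and 1, was the 1 member called for forestomach (13.8% of all genes), and Itgb4 (1 and 3) and Lama3 (3 and 11) were the 2 called for hindstomach (52.5%). The median log2 ratio was -0.65 and that of all genes -1.22. Desmosome genes divided evenly, 9 and 8 (52.9%, 31.0 to 73.8%). Hemidesmosome genes had 9 forestomach-only and 22 hindstomach-only regions (29.0%, 16.1 to 46.6%), 11 of the latter at Lama3. Both intervals held the 32.8% of all genes, and the difference between the groups of genes was not tested. With lists of equal length the split over the 9 genes was even, at 51.2% with the widest peaks and 51.9% with random thinning. All genes were not recomputed at equal length.

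Stomach and intestine were compared at E16 as well. Against E16 intestine, forestomach had 37 regions of its own, 32 were intestine-only and 29 shared (53.6%, 42.0 to 64.9%, all genes 46.5%). Pkp1, with 5 and 1, was called for forestomach, 1 member against 24.0% of all genes, and 0 were called for intestine against 32.2%. The medians were 0.29 and 0. Hindstomach had 42 regions of its own, 25 were intestine-only and 36 shared (62.7%, 50.7 to 73.3%, all genes 58.9%). Itga6 (8 and 3), Pkp1 (6 and 1) and Dsc3 (5 and 2) were the 3 called for hindstomach, where 39.5% of all genes were, and 0 were called for intestine, where 18.1% were. The medians were 0.55 and 0.53. Both stomach comparisons share the intestine library, so Pkp1 in the pair of them is not independent.

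Between E16 intestine and colon, 20 member regions were intestine-only, 39 colon-only and 41 shared (33.9%, 23.1 to 46.6%, all genes 34.7%). Dsp, with 3 and 1, was the 1 member called for intestine (16.4% of all genes). The 4 called for colon (44.7%) were Lama3 with 6 and 15, Itga6 with 3 and 7, Dsc3 with 1 and 4 and Pkp1 with 1 and 4. The median was -0.74 for the members and for all genes. The colon list was the longest, and with lists thinned at random to equal length the split was 48.1%, with no value of all genes computed beside it.

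The KO stomach was set beside both wild-type parts and the E13 stomach, which share the KO library. Against forestomach, KO had 38 regions of its own, 32 were forestomach-only and 34 shared (54.3%, 42.7 to 65.4%, all genes 61.2%). Lamb3 (6 and 1) and Itgb4 (3 and 1) were the 2 called for KO, against 42.2% of all genes, and Dsg3 (0 and 2) the 1 called for forestomach, against 18.4%. The medians were 0.21 and 0.74. With equal list lengths the split turned towards forestomach, to 43.3% with the widest peaks and 41.2% with thinning. The split of all genes at equal length was not computed, so this turn cannot be told apart from one common to all genes. The hemidesmosome genes had 29 KO-only and 18 forestomach-only regions (61.7%, 47.4 to 74.2%) and the desmosome genes 9 and 14 (39.1%, 22.2 to 59.2%). The desmosome interval, of counting error only, lay just below the 61.2% of all genes, and the hemidesmosome interval held it. The difference between the groups of genes was not tested.

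Against hindstomach, KO had 34 regions of its own, 40 were hindstomach-only and 38 shared (45.9%, 35.1 to 57.2%, all genes 50.3%). Dsp (5 and 2) and Lamb3 (5 and 1) were the 2 called for KO (26.7% of all genes), and Lama3 (5 and 12), Dsc3 (1 and 3) and Dsg3 (0 and 2) the 3 called for hindstomach (29.2%). Both medians were 0. Against E13 stomach, KO had 32 regions of its own, 19 were E13-only and 40 shared (62.7%, 49.0 to 74.7%, all genes 61.4%). With equal list lengths the member value was 53.7% with the widest peaks and 50.9% with random thinning. Itgb4 (2 and 0), Lamb3 (5 and 2) and Pkp1 (3 and 0) were the 3 called for KO (46.3%), and 0 were called for E13 (21.8%). The medians were 0.79 and 0.74. The KO regions of Lamb3 outnumbered those of each of the 3 stomach libraries, though 4 of its 8 were in KO alone.

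From E13 stomach to forestomach, 36 regions were forestomach-only, 29 E13-only and 30 shared (55.4%, 43.3 to 66.8%, all genes 47.1%). Pkp1 (6 and 1) and Dsg3 (2 and 0) were the 2 called for forestomach, against 23.1% of all genes, and Lamb3 (1 and 3) the 1 called for E13, against 30.1%. The medians were 0.29 and 0. The desmosome genes had 18 forestomach-only and 8 E13-only regions and the hemidesmosome genes 18 and 21, a difference that was not tested. The 7 squamous and basal epithelium genes went the other way here, with 8 forestomach-only and 20 E13-only regions (28.6%, 15.3 to 47.1%), more E13-only at each of the 7. In all 9 comparisons the interval of the 9 genes held the value of all genes.

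**Figure D4:**
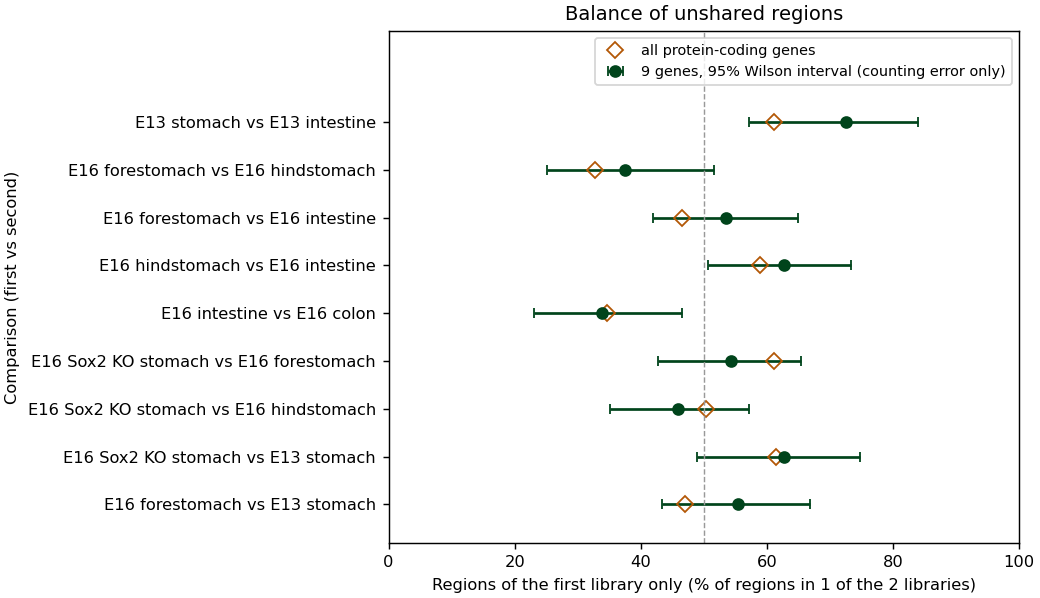
Percent of unshared regions held by the first library of each of 9 comparisons (x axis), as points with 95% Wilson intervals (counting error only) for the 9 genes and as diamonds for all genes. Each of the 9 intervals holds its diamond, and E13 stomach against E13 intestine is the highest point at 72.5%.

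Other genes of or near both structures were taken as lists, and not each gene listed is a component of the structure itself. Of 6 other hemidesmosome genes (Plec, Dst, Cd151, Itga3, Itgb1, Col7a1), 5 had more hindstomach-only than intestine-only regions and 0 the reverse, with 44 against 19 regions (69.8%, 57.6 to 79.8%). The interval held the 58.9% of all genes. Dst, whose epithelial form links hemidesmosomes to keratin, had 26 of the hindstomach-only and 8 of the intestine-only regions. Plec, the plectin that joins the β4 tail to keratin, had 6 and 4, Itgb1, the other β chain that pairs with α6, had 6 and 4, and Itga3, another laminin-binding integrin chain, had 4 and 2. Forestomach against intestine gave 61.2% (47.2 to 73.6%, all genes 46.5%), with Dst at 18 and 8 and Itgb1 at 2 and 4. That interval, of counting error only, lay just above the value of all genes. At E13 the list gave 62.8% for stomach (47.9 to 75.6%, all genes 61.2%), with Plec at 6 and 2.

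Of 12 other desmosome genes (Jup, Pkp2, Pkp3, Dsg1a, Dsg1b, Dsg1c, Dsg2, Dsc1, Dsc2, Perp, Evpl, Ppl), 9 had more hindstomach-only regions and 0 more intestine-only, with 30 against 10 (75%, 59.8 to 85.8%, all genes 58.9%). Dsg1c, a desmoglein, had 5 and 2, and Dsc2, a desmocollin, the plakophilin gene Pkp2 and the periplakin gene Ppl had 4 and 1 each. Forestomach against intestine gave 65.2% (50.8 to 77.3%, all genes 46.5%), and E13 stomach against E13 intestine 75% (59.8 to 85.8%, all genes 61.2%). The interval lay just above the value of all genes for hindstomach and above it for forestomach, and held it at E13. It covers counting error only. Dsg1b, a desmoglein of stratified epithelium, had 6 E13 stomach-only and 1 E13 intestine-only regions. Dsg1a, Dsg1b and Dsg1c are close copies, so peaks there may depend on how reads were placed. For hindstomach against intestine, 16 tight junction genes gave 54.2% (44.8 to 63.3%) and 12 adherens junction genes 58.5% (50.4 to 66.2%). For forestomach against intestine they gave 44.2% (35.1 to 53.8%) and 48.9% (40.8 to 57.1%), and at E13 49.2% (37.1 to 61.4%) and 58.1% (48.5 to 67.1%). All 6 of these intervals held the value of all genes. Whether the lists differ from each other was not tested.

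The regions of each gene were also taken as a share of all regions of the same library, which divides by list length. Among 8268 genes with at least 10 regions, 5 had the 7 shares closest to those of the 9 genes together. They were Abcb9 (Pearson r 0.996), Blk (0.990), Nsmce2 (0.988), Ube2l3 (0.986) and P2rx7 (0.982). These values rest on 7 libraries, 1 per group. Before that division Nsmce2, for example, had 17 regions in E13 stomach, 29 in forestomach, 32 in hindstomach, 29 in KO stomach, 8 in E13 intestine, 21 in E16 intestine and 21 in colon.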

How the data were processed

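The data are ATAC-seq peaks of 7 libraries, 1 per group as labelled. The deposited files hold 3 columns per peak (chromosome, start, end), a unit other than a signal or count, and the authors normalized nothing in them. Per the submitters' processing notes cutadapt, Bowtie2, MACS2 and GRCm38/mm10 were used; the sources used here give no thresholds and do not say whether libraries were pooled. Positions are printed as deposited, counted from 0 or 1, which is not stated. Peaks on chromosomes 1 to 19 and X were merged and given to genes of the GRCm38.p6 RefSeq table, which carries no strand and placed 81.0% of regions at 20444 genes; none of the member regions was tied between genes. Promoter windows come from RefSeq's promoter table. Merging and assignment were tested on simulated data. No test was made across groups. The 9 genes, the other lists and the alternatives (25% coverage, bodies extended by 10 kb, a 20 kb limit, the widest peaks or random thinning to equal length, no gene ends) were chosen with earlier results of these data known. All 9 genes are named; from the other hemidesmosome and desmosome genes at most 4 per comparison have values, those with the largest difference between numbers of first-only and second-only regions, ties by symbol; 1 gene of the other hemidesmosome genes is not reported here and was left out of that list. Python 3.11.15, numpy 2.4.6, pandas 2.3.3 and matplotlib 3.10.9 were used.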

Additional observations from a re-analysis of the deposited data

How the results depend on the processing

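The percent of unshared member regions held by the first library was recomputed for 9 comparisons under 6 alternatives, giving 54 values, of which 49 lay inside the interval of the reported value and did not cross 50%; KO stomach against forestomach came to an even split, 30 and 30 regions, with the 20 kb limit. The others came with equal list lengths (81179 peaks). Random thinning was a single draw per library, so thinned counts, also those of single genes, may change with another draw. Forestomach against hindstomach went from 37.5% to 51.2% with the widest peaks and to 51.9% with random thinning. KO stomach against forestomach went from 54.3% to 43.3% with the widest peaks and to 41.2% with random thinning. E16 intestine against colon went from 33.9% to 48.1% with random thinning and kept its side. These alternatives shorten the longer list, so fewer of its regions remain to be unshared. They were computed for the 9 genes only, so a shift common to all genes cannot be told apart. No paired analysis was possible because each group has 1 library, and no library could be left out. Depth is unknown and peak heights were not used here, so a region without a peak may hold a weak signal.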
